A study of Mus musculus with 115 samples.

Results

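The genes described here are 36 autosomal mouse genes of glycolysis, lactate transport and the hypoxia response, out of 45699 genes in the deposited table. They were chosen by name from these pathways and not by their values, though with earlier results of these data known. All 36 were found by symbol and Ensembl identifier. The libraries, 79 and 36 in the parts described below, hold prostate RNA of (TRAMP x WSB) F2 males. Each library has a different number in its label and was taken as a different mouse. All were Transgene positive, so every mouse carried the SV40 T antigen of the TRAMP line, which is driven in the prostate epithelium and gives prostate tumors there. WSB/EiJ mice are inbred and wild-derived, and each F2 male inherited its own mixture of WSB and C57BL/6 alleles. The mice were euthanised at a set age or at a humane endpoint, and RNA of small prostates came from the ventral prostate. The labels place all libraries in 1 group, with no prostate lacking the transgene, so no condition was compared. The questions were how the genes are expressed across the libraries and how they vary with Mki67, a marker of dividing cells, with Chga, a granin of neuroendocrine cells, and with Vegfa, an angiogenic factor that hypoxia induces.

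Glycolysis splits glucose into pyruvate in the cytosol, and lactate dehydrogenase turns pyruvate into lactate that leaves the cell through monocarboxylate transporters. When oxygen is low, prolyl hydroxylases of the Egln family no longer mark HIF alpha subunits for degradation, and HIF then raises the transcription of glucose transport, glycolytic and other adaptive genes by binding short sites with the core ACGTG or GCGTG. The healthy prostate is a secretory gland with a specialised metabolism, and a switch toward glycolysis is a textbook feature of fast-growing tumors.

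Values are in TPM, which gives each transcript as its part of a fixed sum per library. TPM keeps no sequencing depth, so the counting error behind each value is unknown. The libraries separated on the first principal component of 14503 genes, computed without the genes of interest, into a larger part of 79 and a smaller part of 36. In the larger part the summed TPM of 6 prostate luminal markers was 286 to 18053. Over the smaller part it was 1.63 to 2665 with a median of 20.5, so in many of these libraries the markers of the labelled tissue were nearly absent. Summed, 4 seminal vesicle markers were at 1.81 to 157044 TPM in the larger part (median 1077) and at 1.45 to 241 in the smaller. The part of these transcripts in the relations given below was not tested. Mki67 was 0.39 to 25.7 TPM in the larger part and 20 to 144 TPM in the smaller. Correlations were therefore computed within each part, values are given over both and within each, and the parts were not tested against each other. In bulk tissue, fewer cells of a type and less RNA per cell cannot be told apart.

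Promoter sequences are shown for the 4 genes that varied most closely with Vegfa and have a site core, and for genes of the steps from glucose entry to acid removal. RefSeq (GRCm38.p6) promoters were matched for 34 of the 36 genes, all but Epas1 and Ndrg1. The windows lie within the 250 bases before a start site. Capitals mark ACGTG or GCGTG on either strand, so CACGT and CACGC are the same cores read on the other strand, and cores outside a window are not shown.
Pfkfb3 (chr2:11502118-11502232, minus strand): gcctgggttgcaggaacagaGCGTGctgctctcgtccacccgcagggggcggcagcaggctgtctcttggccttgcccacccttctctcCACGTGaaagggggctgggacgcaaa
P4ha1 (chr10:59323060-59323179, plus strand): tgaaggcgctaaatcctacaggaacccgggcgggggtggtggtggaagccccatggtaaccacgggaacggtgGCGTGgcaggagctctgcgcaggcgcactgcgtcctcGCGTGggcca
Bnip3 (chr7:138909532-138909651, minus strand): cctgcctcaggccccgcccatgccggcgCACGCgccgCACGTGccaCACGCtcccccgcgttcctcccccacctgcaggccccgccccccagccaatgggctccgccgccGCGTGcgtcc
Ankrd37 (chr8:45999981-46000100, minus strand): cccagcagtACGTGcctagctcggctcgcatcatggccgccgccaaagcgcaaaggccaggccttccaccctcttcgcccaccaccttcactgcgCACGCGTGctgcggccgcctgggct
Slc2a1 (chr4:119108664-119108733, plus strand): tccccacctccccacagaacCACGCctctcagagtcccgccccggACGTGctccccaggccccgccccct
Ldha (chr7:46845647-46845766, plus strand): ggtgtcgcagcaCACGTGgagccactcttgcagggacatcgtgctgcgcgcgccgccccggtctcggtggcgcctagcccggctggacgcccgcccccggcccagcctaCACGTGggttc
Slc16a3 (chr11:120949020-120949066, plus strand): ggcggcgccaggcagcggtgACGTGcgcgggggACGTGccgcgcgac
Car9 (chr4:43506988-43507025, plus strand): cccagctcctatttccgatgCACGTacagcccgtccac
ACGTG or GCGTG was present in this stretch in 30 of the 34 genes (88.2%), against 41.5% of all 27025 genes with a promoter and 60.7% of those with a mean of at least 1 TPM here. ACGTG was present in 19 (55.9%, against 18.5% of all genes and 24.6% of those at 1 TPM or more) and GCGTG in 22 (64.7%, against 30.9% and 49.6%). The palindrome CACGTG, which holds ACGTG on both strands, was present in 7 (20.6%, against 6.86% and 9.74%). The Bnip3 window held 5 overlapping or neighbouring cores, and Slc16a3 held 2 directly before its start site. Gpi1, Tpi1, Eno2 and Car12 held neither core in the stretch searched. A gene counted when any of its promoters held the core, so genes with more promoters had more bases searched. The 27025 genes had 32851 promoters. HIF targets are on the list by choice, so these shares describe the list and are not a result of the expression data. A match describes the letters only, and binding was not measured.

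Most of these genes were expressed in all prostates. Of the 36, 33 reached 1 TPM in 50% of libraries or more, the exceptions being Car9, Car12 and Egln3, and 21 stayed at 1 TPM or more in every library. Summed, the 36 made up 0.138% of all TPM at the median library, 0.0427% at the lowest and 0.648% at the highest. Car12 had a mean under 1 TPM and was left out of tests over all genes, so 35 were tested there. Over both parts together, the SD of log2(TPM + 1) had a median of 0.85 for the 35 genes, against 0.63 for all genes tested. The SD lay above 0.63 in 29 of the 35. It holds differences between the parts as well as the spread within them, and the genes compared were not matched by level.

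**Figure D1:**
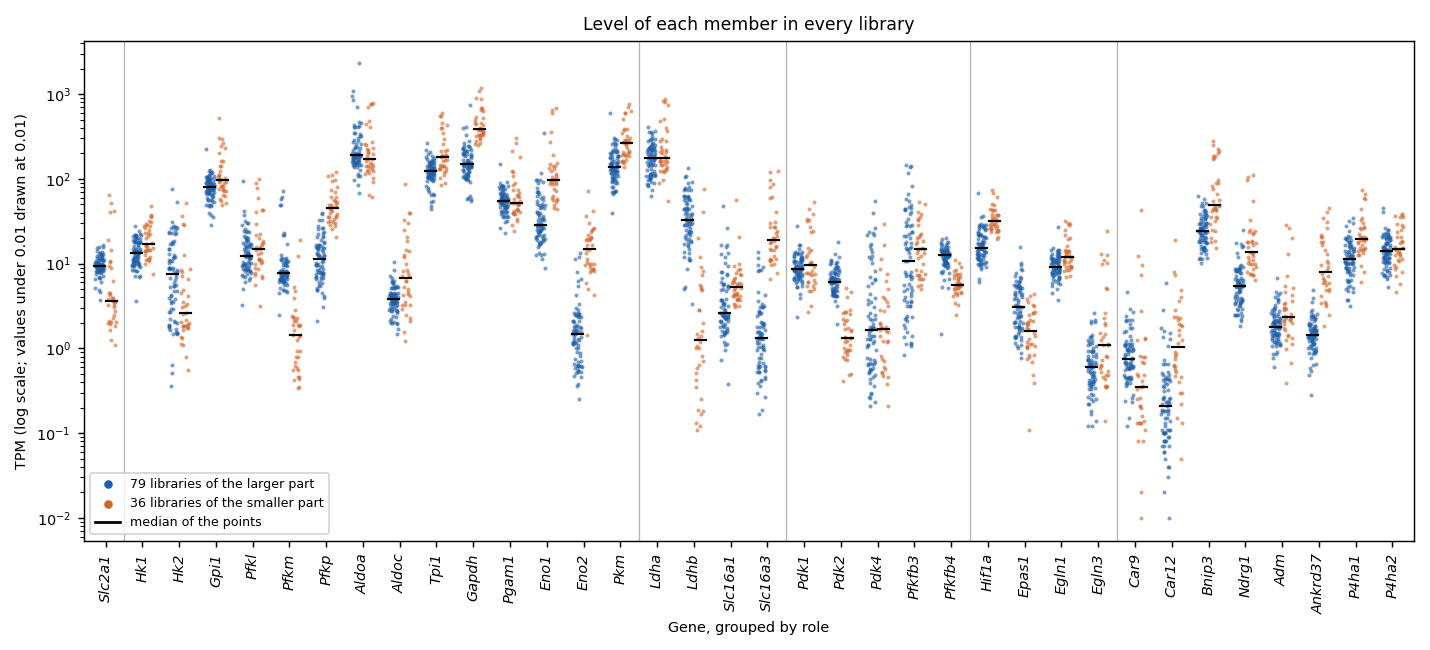
TPM (log axis) of the 36 genes in every library, grouped by role from glucose uptake on the left to HIF targets on the right; blue points are the 79 libraries of the larger part, orange points the 36 of the smaller, and black bars the medians. Gapdh, Aldoa, Ldha, Pkm and Tpi1 have medians over 100 TPM, while Car9, Car12 and Egln3 have medians under 1 TPM.

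Glucose enters through Slc2a1, which encodes the GLUT1 transporter. Slc2a1 was 3.74 TPM at the lowest, 9.36 at the median and 16.5 at the highest over the larger part. Over the smaller part the same values were 1.10, 3.61 and 64.1 TPM. The libraries of the larger part were thus close together, with a ratio of the 90th to the 10th percentile of 1.87, while that ratio was 16 within the smaller part, where 11 libraries formed a separate high set.

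Enzymes of glycolysis were the most abundant of these genes. Gapdh, glyceraldehyde-3-phosphate dehydrogenase, had the highest median of the 36, at 196 TPM over all libraries, with a range of 55.2 to 741 TPM in the larger part and 250.1 to 1188 in the smaller. Aldoa, the main aldolase, had a median of 188 TPM, Ldha, which makes lactate, one of 177 and Pkm, pyruvate kinase, one of 164. Tpi1, triosephosphate isomerase, followed at 132 TPM. Medians fell to 81.8 TPM for Gpi1, the isomerase that forms fructose-6-phosphate, 55.1 for Pgam1, a phosphoglycerate mutase, and 45.9 for Eno1, the common enolase. The ranges of Gapdh, Aldoa and Pkm over the libraries overlapped widely, and their order within each library was not counted. Aldoa reached 2302 TPM in the library W4078, where the muscle genes Mb and Ckm were at 299 and 747 TPM. In the 5 libraries with Mb over 100 TPM, Aldoa was 697 to 2302 TPM and Pfkm, the muscle phosphofructokinase, 49.5 to 71.4 TPM. In the other 74 libraries of the larger part they were 68.6 to 473 and 2.45 to 23.2 TPM, so the highest values of both came from the libraries richest in muscle transcripts. Near-identical processed copies share reads with some of these genes, and copies of Eno1 held a median of 33.5% and those of Pgam1 10.5% of the summed TPM of gene and copies. The highest shares in a library were 63.9% and 24.3%. The 72 listed copies of Gapdh held a median of 4.06% and at most 50.8%.

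Phosphofructokinase is built from subunits encoded by Pfkl, Pfkm and Pfkp, and commits glucose to glycolysis. Within the smaller part Pfkp held a median of 72.6% of the summed TPM of the 3 genes, from 40.7% to 89.2%, and Pfkm 1.75%. In the larger part Pfkl held 38.9%, Pfkp 33.1% and Pfkm 27.1%. Pfkl ranked first in 51 of the 79 libraries of the larger part, Pfkp in 17 and Pfkm in 11, while Pfkp ranked first in 34 of the 36 libraries of the smaller and Pfkl in 2.

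Lactate dehydrogenase is a tetramer of Ldha and Ldhb chains, and Ldha favours lactate formation. Ldha had a median of 177 TPM, from 62.7 to 415 in the larger part and from 55.6 to 866 in the smaller. Ldhb was 3.38 TPM at the lowest, 32.6 at the median and 135 at the highest in the larger part, and 0.11, 1.26 and 76 TPM in the smaller. Ldha exceeded Ldhb in every library of both parts, but Ldhb fell near 0 in many libraries of the smaller part and was high in a few. The mean log2 difference between Ldha and Ldhb on the log2(TPM + 1) scale was 2.37 ± 0.90 (SD, n = 79) in the larger part and 6.06 ± 1.48 (SD, n = 36) in the smaller.

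Lactate leaves through Slc16a1 (MCT1) and Slc16a3 (MCT4), the latter a HIF target. Slc16a1 was 0.38, 2.58 and 48.1 TPM at the lowest, median and highest in the larger part, and 3.08, 5.29 and 57.1 TPM in the smaller. Slc16a3 was 0.17, 1.32 and 13.7 TPM in the larger part and 6.54, 19.2 and 125 TPM in the smaller. Slc16a1 was the higher transporter in 69 of the 79 libraries of the larger part, and Slc16a3 in 36 of the 36 of the smaller. Over both parts together the mean difference was therefore near 0 (-0.01 ± 1.51 on the log2 scale, SD, permutation p = 0.934), a mean that describes neither part.

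Of 16 isozyme pairs, 13 differed over all libraries in a sign-flip permutation test of the log2 difference, at an adjusted p under 0.05 over the 16. Aldoa over Aldoc, Eno1 over Eno2, Ldha over Ldhb, Hif1a over Epas1 and Egln1 over Egln3 held in every library of both parts, each with p = 1e-05, the smallest that the resamples can give. Hk1, the housekeeping hexokinase, exceeded the inducible Hk2 in 96 libraries and fell below it in 19 (difference 1.21 ± 1.11, SD, p = 1e-05). Hk2 itself was 0.36 to 75.1 TPM, a range over which it exceeded Hk1 in 18 libraries of the larger part and 1 of the smaller. Pfkl exceeded Pfkp in 60 of 79 libraries of the larger part and in 2 of 36 of the smaller, so the sign of the mean over all (-0.31 ± 0.95, p = 6e-04) came from the smaller part. P4ha1 and P4ha2, collagen prolyl hydroxylases, crossed in the same way: P4ha1 was the higher in 18 of 79 and 26 of 36 libraries.

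**Figure D2:**
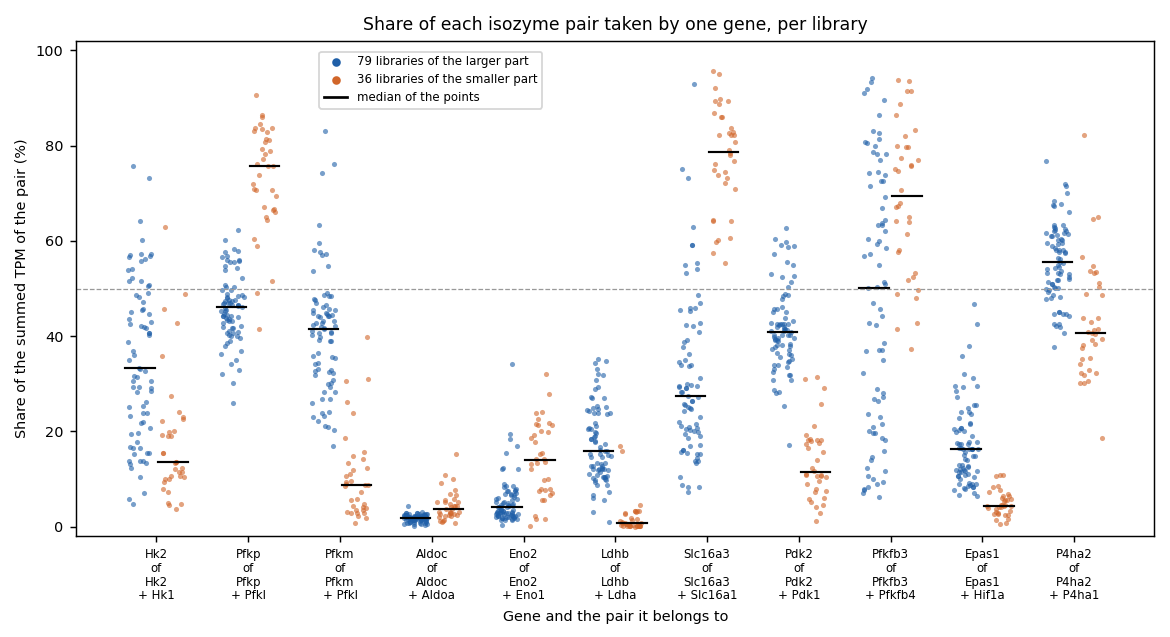
Share (%) of the summed TPM of a pair taken by the gene named, for 11 pairs, with 1 point a library; blue is the larger part, orange the smaller, black bars are medians and the dashed line marks equal shares. Slc16a3 takes a median of 27.5% of the Slc16a1 and Slc16a3 sum in the larger part and 78.7% in the smaller, and Ldhb takes 15.9% and 0.692% of the Ldha and Ldhb sum.

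The switches that steer glycolytic flux differed widely in their spread. Pdk1, Pdk2 and Pdk4 encode kinases that shut pyruvate out of the mitochondrial acetyl-CoA supply. Pdk1 had a median of 8.76 TPM and Pdk2 one of 4.82. Pdk4, induced by fasting and fatty acids, was 0.21 to 54.3 TPM in the larger part, where a separate set of 25 libraries was high. Pfkfb3 and Pfkfb4 make fructose-2,6-bisphosphate, the activator of phosphofructokinase. Pfkfb3 was 0.84, 10.6 and 147 TPM at the lowest, median and highest in the larger part (ratio of the 90th to the 10th percentile 29.7) and 4.99, 14.7 and 53.2 in the smaller. Pfkfb4 stayed within 1.49 to 20.2 TPM in all libraries, with percentile ratios of 1.96 in the larger part and 1.97 in the smaller.

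The oxygen-sensing genes were expressed at moderate levels. Hif1a, the inducible HIF subunit, was 6.02, 15.3 and 69.1 TPM at the lowest, median and highest in the larger part and 19.7, 31.9 and 74.2 TPM in the smaller. Epas1, which encodes HIF-2 alpha and is strong in endothelium, had a median of 2.41 TPM. Hif1a transcript levels do not report HIF activity, since the protein is controlled by degradation. Among the prolyl hydroxylases, Egln1, the main oxygen sensor, had a median of 9.97 TPM, and Egln3, itself a HIF target, one of 0.66 TPM with a highest value of 24.3 TPM in a separate set of 8 libraries of the smaller part.

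The HIF targets ranged from readily detected to nearly absent. Bnip3, a mitophagy receptor induced by HIF, was 10.2, 24.1 and 62.9 TPM in the larger part at the lowest, median and highest, and 15.3, 49 and 282 TPM in the smaller. Ankrd37, a short-lived hypoxia-induced transcript, was 0.28, 1.43 and 4.93 TPM in the larger part and 1.83, 8.07 and 45.6 in the smaller. Bnip3 overlapped between the parts, while Ankrd37 overlapped only between 1.83 and 4.93 TPM. Car9 and Car12 encode cell-surface carbonic anhydrases that remove acid, and Car9 is among the most HIF-dependent genes known. Car9 was listed at 0 in 1 library, had a median of 0.67 TPM and reached 43.1 TPM. Car12 had a median of 0.32 TPM, the lowest of the 36. Ndrg1, a stress-induced gene, had a median of 7.29 TPM and Adm, the vasodilator adrenomedullin, one of 1.99. P4ha1 and P4ha2 were at 13.8 and 14.6 TPM. In the smaller part, 3 libraries (W1050, W1118 and W1182) held the highest value of 27 of the 36 genes, with Ldha at 738 to 866 TPM and Bnip3 at 226 to 282 TPM.

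Few genes of the table, 43 in all, were called upward with Vegfa in the smaller part, and 11 of them were glycolysis or hypoxia response genes of the 36. Vegfa itself was 6.63, 17.1 and 47 TPM at the lowest, median and highest in the larger part and 16.3, 55 and 254 in the smaller. In the smaller part 11 of 35 genes were called with Vegfa by limma at an adjusted p under 0.05, all with a positive slope, while 0.294% of all 14611 genes tested were called in that direction. The 11 are Pfkfb3, P4ha1, Bnip3, Gpi1, Ankrd37, Pfkp, Egln1, Pfkl, Slc16a3, Pdk1 and Eno1. They span flux control, enzymes, lactate export, oxygen sensing and HIF targets.

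Among these genes Pfkfb3 had the largest r with Vegfa in the 36 libraries, at 0.82 (rho 0.82, each permutation p = 1e-05, limma adjusted p = 3.29e-06). P4ha1 followed at r = 0.73 (rho 0.76, limma adjusted p = 4.74e-04) and Bnip3 at r = 0.71 (rho 0.75, limma adjusted p = 8.25e-04). These 3 genes make the flux activator, modify collagen and remove mitochondria. Gpi1 reached r = 0.68 (rho 0.64) and Ankrd37 r = 0.66 (rho 0.68), with limma adjusted p of 0.00321 and 0.00567. Leaving out the 2 libraries with Vegfa farthest from its median, r stayed between 0.64 and 0.82 for these 5 genes. Bnip3 rose by 0.81 ± 0.13 (SE) on the log2 scale for each log2 unit of Vegfa, and Pfkfb3 by 0.72 ± 0.09.

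The relation was partly carried by the 3 libraries named above. Without them, chosen after seeing the data, 4 of 35 genes were called with Vegfa, against 0.226% of all genes, and r was 0.78 for Pfkfb3, 0.68 for P4ha1, 0.65 for Bnip3, 0.61 for Gpi1 and 0.58 for Ankrd37. With median-of-ratios scaling, which scales each library by its median ratio to a reference over genes rather than to a constant total, 6 were called (Pfkfb3, P4ha1, Bnip3, Gpi1, Pfkp and Ankrd37), against 0.139%. Ldha had an r of 0.56 and Slc2a1 one of 0.45 with Vegfa, and neither was called, with limma adjusted p of 0.0643 and 0.246. Ldhb had an r of -0.01 and Pfkfb4 one of -0.28. Over the 36 libraries, 0 of the 6 tested stromal, 0 of the 5 tested immune and 0 of the 4 endothelial markers were called with Vegfa by limma. Their median slopes were -0.34, -0.35 and -0.04, against 0.40 for the 35 genes. That fit called 0.294% of all genes upward and 0.0137% downward, so 0 calls among so few markers says little. With muscle, stroma and immune indices as covariates 24 of the 35 genes were called, against 4.22% of all genes. The part of other cell types was not tested further.

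**Figure D3:**
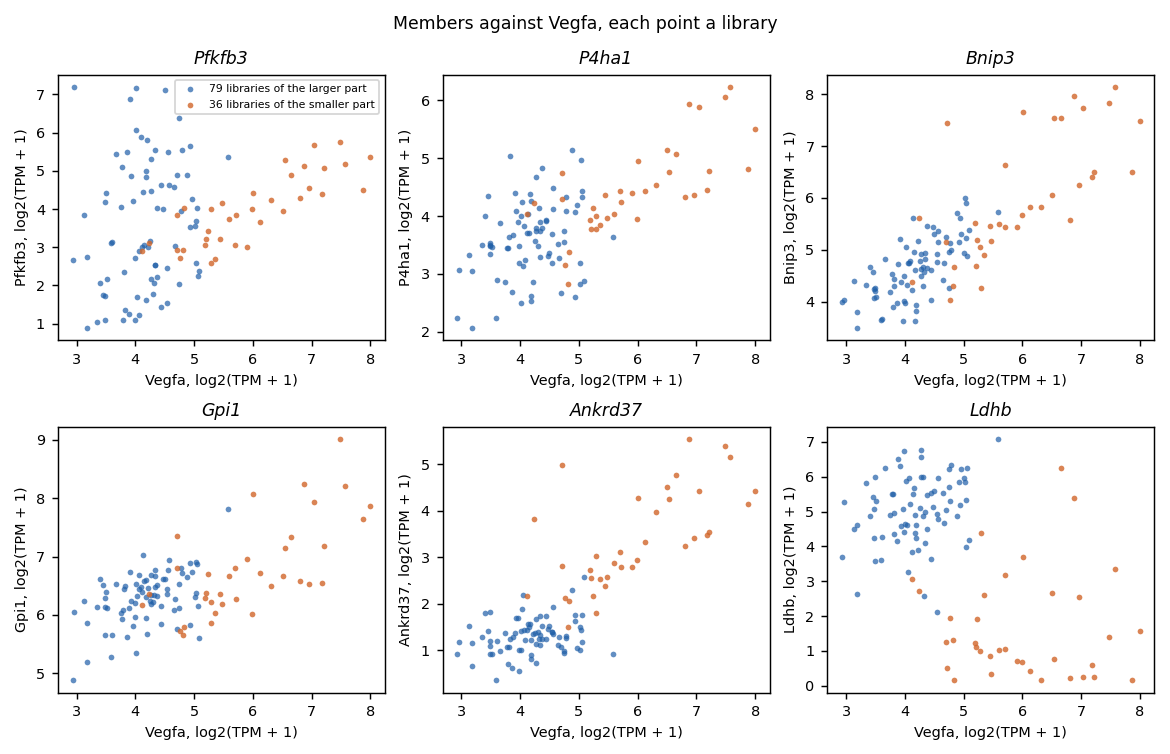
Pfkfb3, P4ha1, Bnip3, Gpi1, Ankrd37 and Ldhb against Vegfa, both in log2(TPM + 1), 1 point a library, blue for the 79 libraries of the larger part and orange for the 36 of the smaller. In the orange points Pfkfb3 (r = 0.82), P4ha1 (0.73), Bnip3 (0.71), Gpi1 (0.68) and Ankrd37 (0.66) climb with Vegfa, while Ldhb (-0.01) does not.

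In the larger part 31 of 35 genes were called with Vegfa, but so were 76.5% of all 14621 genes tested, so the count says little about these genes. The TPM of most genes moves together there, and with median-of-ratios scaling 4 were called (11.4%, against 4.25% of all genes). The 4 are Bnip3, Adm, Ldha and Pdk4. Bnip3 had the largest r of the 35, at 0.69 (rho 0.70, permutation p = 1e-05 each, n = 79) and 0.55 after that scaling. Adm had an r of 0.54 and 0.55 under the 2 scalings, and Pdk4 one of 0.59 and 0.34. Pdk1 and Aldoa, with r of 0.55 and 0.53, were not called after the scaling (limma adjusted p = 0.0823 and 0.151). Bnip3 was thus called with Vegfa in both parts and under both scalings. In the larger part 5 of 5 immune, 4 of 4 endothelial and 4 of 4 fat markers tested were also called with Vegfa on the TPM as deposited. That fit called 76.5% of all genes upward, so these counts say little about those cell types. The part of other cell types in these relations was not tested.

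With Mki67 the result depended on the part and on the scaling. In the larger part 23 of 35 genes (65.7%) were called with a positive slope, against 72.9% of all genes tested, so the share was near that of the table as a whole. The largest r of the 35 were those of Gapdh (0.65), Tpi1 (0.63), Pkm (0.63), P4ha2 (0.61) and Pgam1 (0.60), each with permutation p = 1e-05 and n = 79. With the TPM of its near-identical copies added, Gapdh had an r of 0.54, below the other genes named. With median-of-ratios scaling 9 were called upward (25.7%, against 22.2%) and 6 downward (17.1%, against 20%). Both shares were near those of all genes. The 9 are Hk2, Pfkp, Tpi1, Gapdh, Eno1, Pkm, Hif1a, Ankrd37 and P4ha2, and the 6 are Ldhb, Pdk2, Pfkfb4, Epas1, Ndrg1 and Adm. Gapdh kept an r of 0.41 after the scaling.

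Within the smaller part none of the 35 genes rose with Mki67 and 13 (37.1%) fell, against 21.6% of all genes tested that fell. The count of 0 upward is limma's, with 23.3% of all genes called upward. That count was 3 of 36 with TPM rescaled without the 20 largest genes, against 38.3% of all genes. At an unadjusted limma p under 0.05, 17 of the 35 passed in either direction, as did 7668 of all 14611 genes tested. Pfkm had the most negative r, at -0.57 (rho -0.61), followed by Pdk2 (-0.54), Hk1 (-0.53), Tpi1 (-0.51) and Hk2 (-0.44), with limma adjusted p between 0.00118 and 0.0154 (n = 36). With median-of-ratios scaling 25 fell (71.4%, against 38.6%). Among markers of other cells, 6 of 6 stromal, 5 of 5 immune, 6 of 6 luminal and 4 of 4 fat markers tested fell with Mki67 as well. With muscle, stroma and immune indices as covariates 3 of 35 were called, against 4.19% of all genes. The median slope of the 35 was then -0.49, against -0.44 without the covariates. An unadjusted limma p under 0.05 was reached by 14 of them, against 17 without the covariates, and by 4994 of all 14611 genes. Among the genes named, the slope of Tpi1 was -0.81 with the covariates and -0.62 without, and that of Hk1 -0.50 and -0.52. The slopes of Pfkm (-0.55 against -0.80), Pdk2 (-0.26 against -0.46) and Hk2 (-0.65 against -0.90) were smaller in size with the covariates. These last genes were then not called (limma adjusted p = 0.095, 0.225 and 0.236). Fewer calls thus came with a median slope of about the same size, while the slopes of single genes moved either way. Without the 3 libraries named above 5 were called, against 16.1%, with a median slope of -0.26. Transcripts of other cell types thus moved with Mki67 along with these genes, and their part in the result was not tested beyond the covariate fit.

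Chga separated within each part, into 72 and 7 libraries in the larger and into 4 and 32 in the smaller, so its relations are given within the sets of 72 and 32. Among the 32 libraries, with Chga between 21.2 and 479 TPM, 18 of 35 genes were called with a positive slope (51.4%), against 9.11% of all genes tested. Aldoc, the aldolase typical of brain, had the largest r of the 35 at 0.70 (rho 0.57), followed by Gapdh (0.66), Slc2a1 (0.65), Tpi1 (0.62) and Pgam1 (0.61), with limma adjusted p between 0.00245 and 0.00906. With median-of-ratios scaling 6 were called (17.1%, against 1.64%), these 5 and Ldha. The 32 libraries include W1182, with Chga at 284 TPM and the highest value in the smaller part of 8 of the 36 genes. No fit over all genes was made in this set without W1182. Over all 36 libraries of the smaller part the direction was the reverse, with 12 genes falling and 1 rising, against 24.2% and 9.94% of all genes. That fit rests on the 4 libraries with Chga between 0.15 and 2.55 TPM, 2 of which, W1050 and W1118, are among those with the highest glycolytic values.

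In the 72 libraries of the larger part with low Chga (0.06 to 0.81 TPM), Eno2 alone was called, 1 of 35 against 0.869% of all genes. Eno2 encodes the neuronal enolase and had an r of 0.46 (rho 0.39, limma adjusted p = 0.00722, n = 72). It was not called with median-of-ratios scaling (limma adjusted p = 0.0622). No fit over all genes was made in the 7 libraries with higher Chga.

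**Figure D4:**
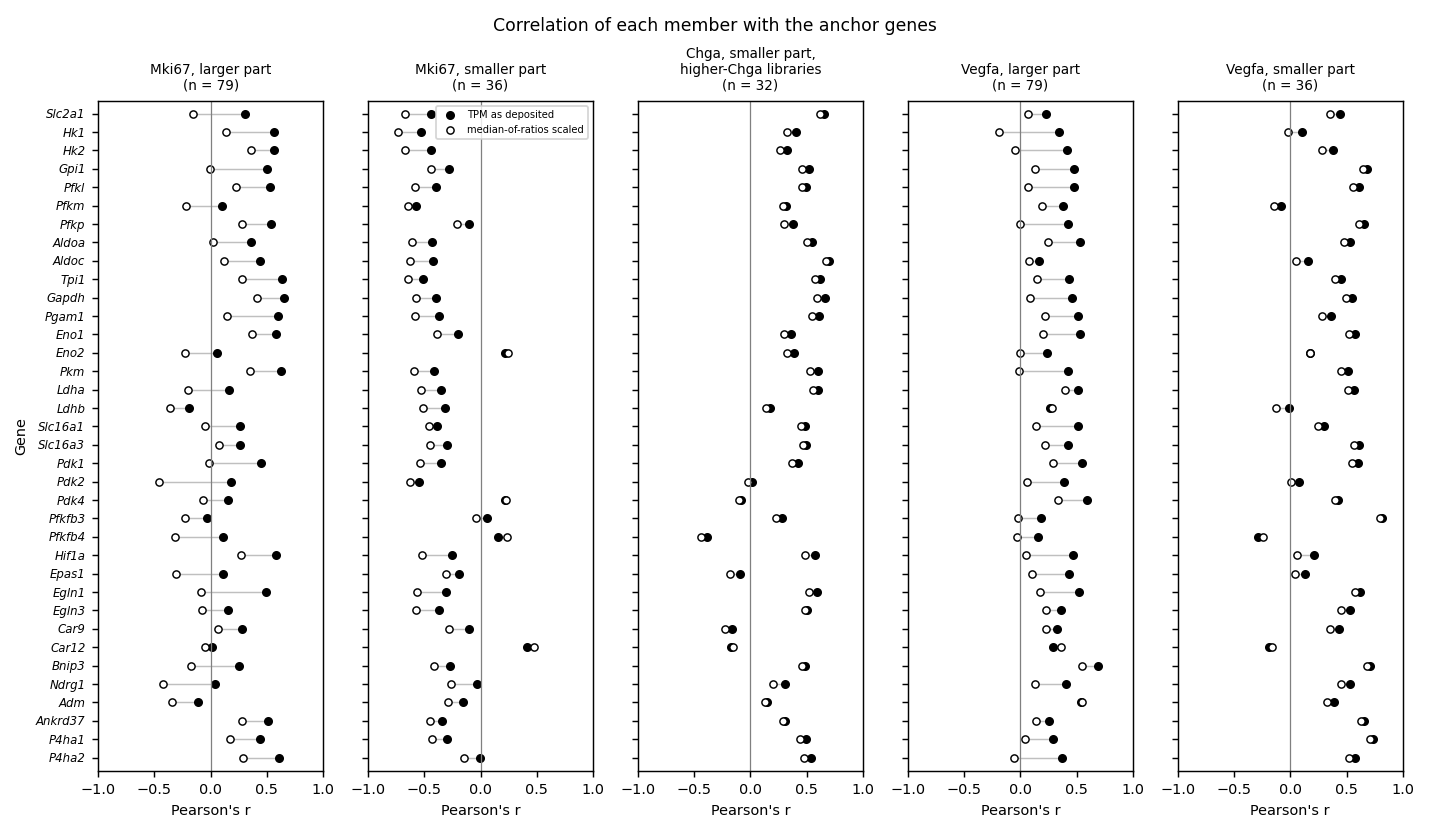
Pearson's r of each of the 36 genes with Mki67, Chga and Vegfa within the sets of libraries named above each panel; filled circles are TPM as deposited and open circles the same values after median-of-ratios scaling, joined by a line. In the panel of Vegfa in the smaller part the scalings lie close together, as for Pfkfb3 at 0.82 and 0.80, while in the panels of the larger part they lie apart, as for Pgam1 with Mki67 at 0.60 and 0.15.

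The genes also varied together. In the smaller part the median r over the 595 pairs of the 35 tested genes was 0.58, against 0.14 over all pairs of genes tested, and 58.8% of the pairs had an r of at least 0.5, against 17.8%. The figures with median-of-ratios scaling were 0.50 and 0.02, and without the 3 libraries named above 0.48 and 0.14. In the larger part the median r was 0.45, against 0.42 over all pairs, which are close, and after the scaling these were 0.20 and 0.00. For each gene, the 1% of all genes with the highest r to it was also listed: in the smaller part the other members made up 31.8% of the places they could take, and in the larger part 5.38%, where 1% is the share that all genes take by construction. Gpi1 and Pfkfb3 each had 21 other members among their nearest 1% in the smaller part, and Pfkp, Tpi1, Gapdh, Slc16a3, Egln1, Bnip3 and P4ha1 had 20 each.

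An r of at least 0.7 in both parts was found for 61 pairs of 16 genes, out of 595 (10.3%), against 2.04% of all pairs of genes tested. With median-of-ratios scaling 11 pairs reached it (1.85%, against 0.332%), and in the larger part the r of the 61 pairs then lay between 0.19 and 0.83, with a median of 0.55. Of these genes, Gapdh and Pkm were in 12 pairs each, Gpi1 and Pfkl in 11, and Aldoa, Pgam1, Eno1 and Egln1 in 10. Gpi1 with Egln1 had the largest r in the larger part, at 0.94, and one of 0.88 in the smaller. Tpi1 with Gapdh had an r of 0.84 and 0.95, and Slc16a3 with Egln3, both HIF targets, one of 0.81 and 0.91 (each permutation p = 1e-05). After the scaling the larger-part values of these 3 pairs were 0.83, 0.63 and 0.78. Of the 16 genes, 11 encode enzymes of the chain from glucose to pyruvate, and the other 5 are Egln1, Egln3, Pdk1, Slc16a3 and P4ha1.

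Other pairs were close in the smaller part. Slc2a1 with Hk2, the entry and trapping of glucose, had an r of 0.95 in the smaller part and 0.04 in the larger. Aldoa with Ldha had 0.95 and 0.42, and Slc16a3 with Bnip3 0.94 and 0.36. With median-of-ratios scaling the values in the larger part were -0.66 for Slc2a1 with Hk2, 0.14 for Aldoa with Ldha and 0.12 for Slc16a3 with Bnip3, while those in the smaller part were 0.94, 0.94 and 0.93. The differences between the parts were not tested. Pfkfb4 went against most of the others, with its most negative r in the smaller part at -0.61 with Egln3, and -0.58 with both Pdk1 and Hif1a. Of its 34 partners there, 31 had a negative r and 3 (Pdk2, Eno2 and Pdk4) a positive one of at most 0.08. Pfkfb4, Eno2, Ldhb, Pdk2, Pfkm and Epas1 had no other member among their nearest 1% in the smaller part.

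**Figure D5:**
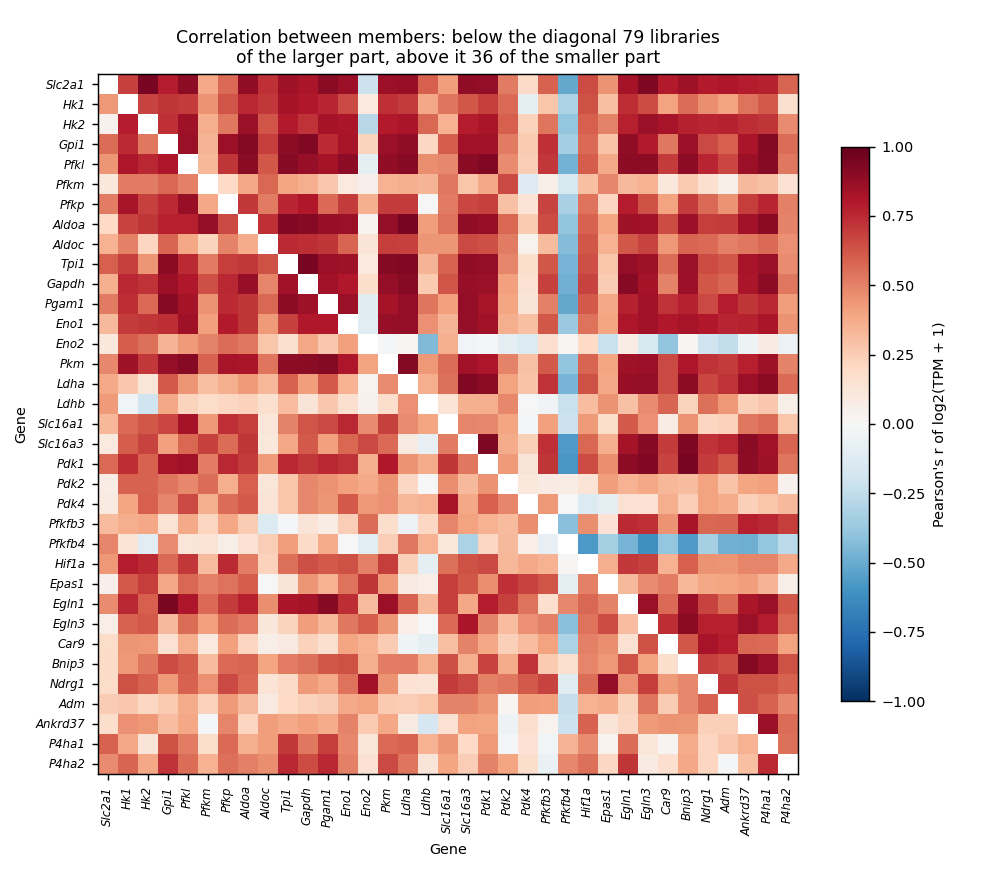
Pearson's r of log2(TPM + 1) between the 35 tested genes, with the 79 libraries of the larger part below the diagonal and the 36 of the smaller above it; red is positive and blue negative. Above the diagonal, most pairs are red (median r 0.58), and those of Pfkfb4 are blue for 31 of its 34 partners.

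Of 32 further autosomal genes of the same pathways, 27 were tested. In the smaller part 4 of the 27 were called upward with Vegfa (Kdm3a, r = 0.75, Ddit4, r = 0.72, Ero1l, r = 0.62, and Higd1a, r = 0.61), against 0.294% of all genes. With median-of-ratios scaling Kdm3a and Ddit4 were called, against 0.139%, and Ero1l and Higd1a were not (limma adjusted p = 0.0928 and 0.0858). With Mki67 in the smaller part 12 fell and 2 rose, against 21.6% and 23.3% (19 fell with the scaling, against 38.6%), with Ldhd (-0.68), Eno3 (-0.64) and Fbp1 (-0.61) the most negative. Among the 32 libraries with high Chga 6 rose, against 9.11% (3 with the scaling, against 1.64%). Bnip3l (r = 0.70) and Fam162a (0.65) were the closest, and without W1182 their r was 0.64 and 0.58. Bnip3l is the relative of Bnip3 and, like Ddit4, Kdm3a and Ero1l, a known hypoxia-induced gene.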

How the data were processed

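RNA-seq libraries from (TRAMP x WSB) F2 prostates were taken as 1 group, since the labels give no other. After ribosomal RNA depletion and read trimming, the authors aligned to an allele-specific transcriptome with Bowtie2 (2.2.5 in the submitters' processing notes) and estimated gene levels with RSEM (1.2.20). The deposited values are TPM for 45699 genes on GRCm38, with no counts, so no count model, depth or counting interval was used. The annotation release is not given in the sources used here. Symbols and positions came from GENCODE M21, and 0 columns belonged to no sample. The paper's text gives n = 92 without naming libraries, so all were used.

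Levels were summarised within the parts of the libraries found by a mixture of 2 normal distributions on the first principal component (BIC fall over 10, Ashman D over 2, at least 6 libraries a part). The slope of log2(TPM + 1) on that of Mki67, Chga or Vegfa was tested for every gene with a mean of at least 1 TPM with limma 3.58.1 (R 4.3.3), with Benjamini-Hochberg adjustment over all of them and a threshold of 0.05. Pearson's r and Spearman's rho of each member were tested two-sided with 100000 permutations, for 252 relations. Isozyme pairs were tested two-sided by flipping signs over 100000 resamples. These p-values measure the spread between libraries, which were taken as separate mice because their labels differ. The labels W7822 and W78022 are nearly alike, and whether they name separate mice is not stated. Without W78022 the genes called in the larger part were 23 with Mki67, 12 with Chga and 30 with Vegfa. The shares of all genes were 73%, 17.2% and 74.7%. Members named are the 10 with the highest and 5 with the lowest median, the isozyme pairs, up to 5 called genes in each direction for each relation, and pairs with r of at least 0.7 in both parts. A gene counted as separate in a part by the same mixture rule. Near-identical copies were sought at 95% identity over 80% of a transcript with BLAST+ 2.17.0. The members, lists and tests were chosen with earlier results of these data known.

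The limma fit and the permutations were tested on simulated data, with genes simulated independently of each other. At a true r of 0.5 the limma fit recovered 91 of 100 genes with 79 libraries and 36 of 100 with 36. At a true r of 0.7 it recovered 100 and 96 of 100. Relations of moderate size can thus be missed in the smaller part. Alternatives were a pseudocount of 0.1, scaling by the median of ratios, rescaling after removal of the 20 largest genes, no filter, ranks, cell-type indices as covariates, and fits without single libraries. Scripts ran in Python 3.11.15 with scipy 1.17.1, numpy 2.4.6, scikit-learn 1.9.0, pandas 2.3.3 and, for plots, matplotlib 3.10.9.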

Additional observations from a re-analysis of the deposited data

How the results depend on the processing

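TPM holds no depth, and low values (Car9, Car12, Egln3) are the least certain. No paired analysis was possible because all mice belong to 1 group. The 79 and 36 libraries and the 33 detected genes were the same, or within 1.5 times, under every alternative run. The number of genes called changed as follows, of 35 tested, or of 36 without the 20 largest genes and with no filter. Percentages are the share of all genes tested that the same fit called in the same direction. With Mki67 in the larger part it was 23, all upward (72.9%), and 15 with median-of-ratios scaling (9 up against 22.2%, 6 down against 20%). Without the 20 largest genes it was 14 (11 up against 28.8%, 3 down against 8.78%). With the covariates it was 19 (13 up against 47.1%, 6 down against 6.77%). Over all libraries with the part as a term it was 15 (14 up against 65.3%, 1 down against 1.9%). With Mki67 in the smaller part it was 13, all downward (21.6%), and 25 downward with median-of-ratios scaling (38.6%). Without the 20 largest genes it was 24 (3 up against 38.3%, 21 down against 22.2%). With the covariates it was 3 downward (4.19%). Without W1050, W1118 and W1182 it was 5 downward (16.1%). With Chga in the larger part it was 12 (18.7%), 7 with median-of-ratios scaling (9.53%), 7 with ranks (10.4%) and 3 with the covariates (3.26%), all upward. In the 72 libraries of low Chga it was 1 upward (0.869%), and 0 there after the scaling (1.94% up, 4.05% down). Over all libraries with the part as a term it was 13 (1 up against 14.5%, 12 down against 19.2%), the reverse direction. With Chga in the smaller part it was 13 (1 up against 9.94%, 12 down against 24.2%), and 0 with ranks (1.2% up, 0.0548% down). Without the 3 libraries it was 2 downward (6.26%). In the 32 libraries of high Chga it was 18 upward (9.11%), and 6 upward there after the scaling (1.64%). With Vegfa in the larger part all calls were upward, 31 (76.5%), and 4 with median-of-ratios scaling (4.25%). Without the 20 largest genes it was 3 (3.83%) and with the covariates 16 (27.5%). With Vegfa in the smaller part all calls were upward, 11 (0.294%), 6 with median-of-ratios scaling (0.139%) and 6 without the 20 largest genes (0.107%). With no filter it was 6 (0.0621%), with ranks 5 (0.103%) and with the covariates 24 (4.22%). In the 32 libraries of high Chga it was 6 (0.219%). Without the 3 libraries it was 4 (0.226%), and 4 without them after the scaling (0.257%). The fits in the sets of Chga and without named libraries were chosen after seeing the data. The cause of these changes was not tested. Some isozyme pairs changed sign without the smaller part or with a pseudocount of 0.1: Pfkl over Pfkp (0.21 without the smaller part), Pfkfb3 over Pfkfb4 (-0.0874) and Slc16a1 over Slc16a3 (0.80, and 0.21 with the pseudocount). Without the larger part Pdk2 over Pdk4 (-0.34), Car9 over Car12 (-0.40) and P4ha1 over P4ha2 (0.38) changed sign. The median r of the member pairs was 0.45 in the larger part, and 0.20, 0.22 and 0.22 with median-of-ratios scaling, without the 20 largest genes and with the covariates, 0.58 in the smaller part and 0.50 there after the scaling.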

Other observations

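Phosphoglycerate kinase, the step between Gapdh and Pgam1, is missing from the autosomal list because Pgk1 is X-linked. Pgk1 was listed at 0.22 to 7.49 TPM, with a median of 0.72. The processed pseudogene Pgk1-rs7, on chromosome 12, was listed at 39.3 to 554 TPM with a median of 106.7, a level like that of Tpi1. Reads of near-identical genes can be assigned to either, and which gene they came from was not tested. Pgk1-rs7 was called with Vegfa in the smaller part (r = 0.61, limma adjusted p = 0.0220).

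Of the 43 genes called upward with Vegfa in the smaller part by limma, 11 were members and 4 were among the 32 further pathway genes. Genes among the other 28 were picked for naming after their values were seen. The largest r were those of Ciart, a circadian repressor (0.83), Gm26762 (0.82), Seh1l (0.75) and Ak4, a mitochondrial adenylate kinase (0.74). Kdm4b (0.73), Gm14856 (0.71) and Tbl2 (0.71) came next. Further down, and not picked by rank, were Mif, a cytokine (0.62), Bhlhe40, a hypoxia-induced transcription factor (0.61), and Ndufa4l2, a HIF-induced mitochondrial protein (0.58). Ciart was 0.79 to 11.3 TPM in these libraries, with a median of 2.41. Only Tppp3 (r = -0.60) and Gata3 (r = -0.60) were called downward.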
